A study of Mus musculus with 12 samples.

Results

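Liver transcripts of 10 genes of the p53 and GADD45 growth arrest programme were followed in mice with concanavalin A (Con A) hepatitis. The genes were Trp53, Cdkn1a, Mdm2, Ccng1, Btg2, Trp53inp1, Sesn2, Gadd45a, Gadd45b and Gadd45g. They were taken by gene symbol, in a choice made with earlier results of these data known, and all 10 were among the 11289 genes of the expression table. After Con A, 9 of the 10 rose, beside 19.5% of all genes, and Cdkn1a, Btg2 and Gadd45g had the highest fitted fold changes, 7.24, 7.11 and 6.95. The Trp53 transcript itself was 583 ± 53.4 (SD, n = 4) after Con A and 499 ± 105 (SD, n = 4) in control mice, and did not pass the test. When mesenchymal stem cells followed Con A, all 10 genes had a lower fitted level than with vehicle, and 3 of them, Btg2, Sesn2 and Gadd45b, passed the test, beside 4.38% of all genes called down, a count that ranged from 0 to 8 when 1 mouse was left out.

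p53 is a transcription factor that is held at a low level in unstressed cells by MDM2, the ubiquitin ligase that marks it for destruction, and is stabilised by DNA damage and other stress mainly at the level of the protein. Its targets stop the cell cycle, start repair or antioxidant defence, or lead to cell death, and Mdm2 is itself a target, which closes a feedback loop. The GADD45 proteins are small stress proteins that bind cell cycle kinases, PCNA and the kinase MTK1 upstream of p38 and JNK. Gadd45a is a p53 target, whereas Gadd45b and Gadd45g are best known as genes induced by NF-κB, TGF-β and cytokines. In liver, Cdkn1a and the Gadd45 genes are known to respond to injury and to regeneration. Only RNA was measured here, so the amount and activity of the p53 protein are not part of the data.

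The mice were C57BL/6J, aged 8 to 10 weeks by the labels. The paper differs from the labels in the age of the mice and in how many cells were infused. The control group was labelled Ctrl, and the labels do not say whether these mice received an injection. The Con A + PBS group, labelled Con A, received Con A at 15 mg/kg through the tail vein, and phosphate-buffered saline (PBS) by vein 30 min later. Con A is a plant lectin that activates T cells and causes an acute immune hepatitis. The Con A + hWJ-MSCs group, labelled Con A + MSCs, received the same dose of Con A and, in place of PBS alone, human mesenchymal stem cells of the Wharton's jelly of the umbilical cord (hWJ-MSCs) in 200 µL of PBS. There was no group with hWJ-MSCs alone among the samples, and the human cells were infused into mice with an intact immune system. Liver tissue was taken 24 h after Con A from 4 mice in each group, and the mice were separate animals, so n counts mice.

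The deposited value is a whole number per gene and mouse that had already been normalised between mice, and it is called the normalised value below. The totals of the 12 mice differed by 0.0425% of their median, so the depth of sequencing is unknown and no counting error can be given. Values are not stated to be divided by transcript length, so they are compared between mice and not between genes. Every gene of the table reached 64 in at least 2 mice, and all 10 of the genes studied here did so in the control mice alone, so none of them was in the table only because of its value after Con A. All 12 hepatocyte markers, albumin among them, were in the table. Alb and Cps1, the gene of the first urea cycle enzyme, held 1 value each in all 12 mice, 341028 and 147960, so they carry no information on differences between mice. The summed value of the other 10 was 685359 to 1061794 in control mice, 283949 to 326018 in Con A + PBS mice and 324266 to 388338 in Con A + hWJ-MSCs mice. Because liver tissue was sequenced in bulk, fewer cells of a type and less RNA per cell cannot be told apart.

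To show what lies at the starts of these genes, the promoter windows of RefSeq (build GRCm38.p6) were searched on both strands for 6 motifs. The windows hold 250 bases before and 50 bases after a transcript start, and 9 of the 10 genes had one. The motifs were chosen after earlier results of these data were known. They were the p53 half-site (the decamer to which a p53 dimer binds, as defined by its consensus), the κB site, the boxes CCAAT and TATAAA and GGGCGG, and TGACGTCA (the cyclic AMP response element). Only exact matches were counted, so a site that departs from its consensus at any base was left out. A half-site found alone may therefore have an imperfect partner that was not counted. A p53 half-site was found near the start used in the table in 5 of the 9 genes, namely Trp53, Cdkn1a, Mdm2, Ccng1 and Gadd45a, whereas 8.36% of all 32851 windows held one. These 5 genes include Trp53, which did not pass the test after Con A. The Cdkn1a window was the single one of the 9 with a pair of exact half-sites, which lay 73 and 51 bases before the start with 12 bases between them. A pair no more than 13 bases apart, the spacing allowed in a full p53 site, was found in 24 of the 32851 windows, or 0.0731%. The second RefSeq start of Cdkn1a, 2790 bases downstream, had no half-site in its window. A match is a description of letters, and no binding was measured.

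The first set shows the 200 bases before the start, read 5′ to 3′ on the strand of the gene, for the 4 genes with a p53 half-site that rose after Con A. For Ccng1, whose RefSeq start lies 25 bases downstream of the start in the table, the stretch ends before the latter. Capitals mark p53 half-sites and the motifs CCAAT and TATAAA and TGACGTCA, read on either strand, so that CCAAT may appear as ATTGG.
Cdkn1a, chr17:29090779-29090978, plus strand: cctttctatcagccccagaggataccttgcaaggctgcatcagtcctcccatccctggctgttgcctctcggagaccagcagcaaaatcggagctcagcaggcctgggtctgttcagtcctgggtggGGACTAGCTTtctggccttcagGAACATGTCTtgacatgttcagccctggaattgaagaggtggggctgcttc
Mdm2, chr10:117710759-117710958, minus strand: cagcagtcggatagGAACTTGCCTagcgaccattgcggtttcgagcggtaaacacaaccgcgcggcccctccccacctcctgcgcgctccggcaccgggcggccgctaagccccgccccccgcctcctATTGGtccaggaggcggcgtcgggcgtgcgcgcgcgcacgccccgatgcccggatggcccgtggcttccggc
Ccng1, chr11:40755312-40755511, minus strand: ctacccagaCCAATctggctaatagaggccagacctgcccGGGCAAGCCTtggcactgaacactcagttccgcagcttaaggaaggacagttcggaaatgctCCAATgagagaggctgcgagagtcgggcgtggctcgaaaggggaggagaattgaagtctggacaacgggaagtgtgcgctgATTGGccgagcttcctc
Gadd45a, chr6:67037408-67037607, minus strand: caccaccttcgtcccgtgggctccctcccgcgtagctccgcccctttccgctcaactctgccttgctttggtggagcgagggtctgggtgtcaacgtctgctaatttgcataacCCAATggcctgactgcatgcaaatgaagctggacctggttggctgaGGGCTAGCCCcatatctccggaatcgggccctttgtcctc

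The second set shows the same stretch for Btg2, Sesn2, Gadd45b and Gadd45g, which also rose after Con A and whose windows held no p53 half-site. For Sesn2 it ends before the start in the table, which lies 45 bases upstream of the RefSeq start.
Btg2, chr1:134079156-134079355, minus strand: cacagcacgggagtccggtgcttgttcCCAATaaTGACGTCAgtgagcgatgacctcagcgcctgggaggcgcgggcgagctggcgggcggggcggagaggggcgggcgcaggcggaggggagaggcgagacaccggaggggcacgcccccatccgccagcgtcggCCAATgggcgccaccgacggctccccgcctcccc
Sesn2, chr4:132510502-132510701, minus strand: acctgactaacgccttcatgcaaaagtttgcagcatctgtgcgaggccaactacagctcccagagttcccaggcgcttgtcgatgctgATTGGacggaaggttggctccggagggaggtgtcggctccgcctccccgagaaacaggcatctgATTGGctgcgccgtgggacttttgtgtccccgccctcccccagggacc
Gadd45b, chr10:80929891-80930090, plus strand: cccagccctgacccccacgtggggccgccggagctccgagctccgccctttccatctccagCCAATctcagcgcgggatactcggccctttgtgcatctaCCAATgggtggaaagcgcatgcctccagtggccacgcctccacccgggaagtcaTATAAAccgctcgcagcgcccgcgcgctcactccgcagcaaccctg
Gadd45g, chr13:51846475-51846674, plus strand: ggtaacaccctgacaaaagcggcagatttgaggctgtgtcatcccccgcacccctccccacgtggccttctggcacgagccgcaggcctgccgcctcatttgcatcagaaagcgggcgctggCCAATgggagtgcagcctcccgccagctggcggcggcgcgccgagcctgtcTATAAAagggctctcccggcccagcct

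In the first set, the Cdkn1a half-sites are the only capitals of that stretch, and those of Mdm2, Ccng1 and Gadd45a share their stretch with CCAAT. In the second set, Btg2 has the cyclic AMP response element 166 bases before its start, a motif that 1.79% of all windows held. Gadd45b and Gadd45g share CCAAT and TATAAA, which 37.4% and 13.6% of all windows held, with TATAAA 46 and 27 bases before the start. GGGCGG, which is not marked, was in 35.7% of all windows, and among the genes studied here in those of Mdm2, Btg2, Sesn2, Gadd45a and Gadd45b and at the downstream start of Cdkn1a. A κB site, in 8.46% of all windows, was found for Trp53 alone, across its start.

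**Figure D1:**
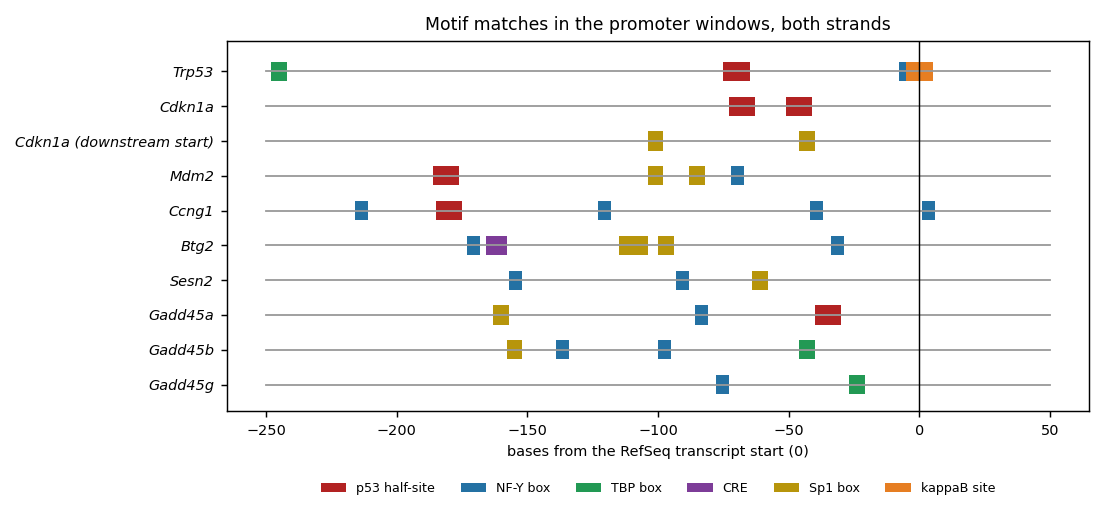
Positions of the motif matches in the promoter windows of 9 genes, in bases from the RefSeq transcript start (x axis), with 1 line per window and coloured blocks for the p53 half-site, CCAAT (NF-Y box), TATAAA (TBP box), TGACGTCA (CRE), GGGCGG (Sp1 box) and the κB site. Red blocks, the p53 half-sites, stand in 5 lines, and the upper Cdkn1a line is the only one with a pair of them.

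The first question was which of these genes changed in the injured liver, and it was addressed by comparing Con A + PBS with control mice. Of the 10 genes, 9 rose and 0 fell, while 19.5% of all genes in the table were called up and 19.2% down. A gene was called when its Benjamini-Hochberg adjusted p from limma was below 0.05 and its fold change above 1.5. Among the genes of the table that reached 64 in at least 2 control mice, 16.6% were called up. At an unadjusted p below 0.05 the count of genes that fell was also 0. In 8 of the 10 genes every Con A + PBS mouse was above every control mouse, compared with 27.1% of all genes. The median log2 fold change of the 10 genes was 1.62, and that of all genes was 0.05. All 9 calls held in each of the 12 fits that left out 1 mouse.

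The loop of p53 and its inhibitor came first. Trp53 (chr11:69580359-69591873, mm10), which encodes p53, was measured at 610, 410, 567 and 408 in the 4 control mice and at 511, 604, 580 and 637 after Con A + PBS. The groups overlapped, with 1 control mouse above all but 1 of the Con A + PBS mice. Its log2 fold change was 0.24 ± 0.15 (SE) with an adjusted p of 0.173 (limma, Benjamini-Hochberg). Mdm2 (chr10:117688888-117710758), the inhibitor and target of p53, was at 588, 540, 637 and 542 in control mice and rose to 1168, 865, 936 and 1444. The groups did not overlap, and the log2 fold change was 0.91 ± 0.15 (SE) with an adjusted p of 3.71e-04.

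The genes that restrain the cell cycle included the one with the highest fold change among the 10. Cdkn1a (chr17:29090979-29099527) encodes p21, the inhibitor of cyclin-dependent kinases through which p53 stops the cycle. Its values were 392, 252, 254 and 590 in control mice and 2521, 2009, 2492 and 3260 after Con A + PBS. The lowest Con A + PBS mouse was thus far above the highest control mouse. The log2 fold change was 2.86 ± 0.25 (SE), with an adjusted p of 2.75e-06 in limma after Benjamini-Hochberg adjustment. Btg2 (chr1:134075170-134079120), an antiproliferative protein that acts with the CCR4-NOT deadenylase, was at 325, 150, 231 and 334 in control mice and at 1893, 1034, 1592 and 3130 after Con A + PBS. These groups did not overlap either, and the Con A + PBS mice had a wide spread, 1912 ± 886 (SD, n = 4). The log2 fold change of Btg2 was 2.83 ± 0.33 (SE) with an adjusted p of 2.34e-05. Ccng1 (chr11:40748552-40755311), cyclin G1, a p53 target that works with protein phosphatase PP2A on MDM2, rose from 656, 572, 806 and 648 to 1672, 1382, 1858 and 1830. Its spread was narrow in both groups, and with a smaller log2 fold change than Btg2, 1.33 ± 0.14 (SE), it had a lower adjusted p, 8.78e-06.

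Trp53inp1 and Sesn2 stand for the autophagy and stress defence arms of the programme. Trp53inp1 (chr4:11156431-11174379), a nuclear protein that promotes p53 phosphorylation and autophagy, was at 1830, 2062, 1170 and 1892 in control mice and at 4840, 2245, 4111 and 5142 after Con A + PBS. Con A + PBS mouse 2 was only just above the highest control mouse, and the other 3 were clearly above. Its log2 fold change was 1.19 ± 0.30 (SE), with an adjusted p of 0.00510. Sesn2 (chr4:132492032-132510501), sestrin 2, a leucine sensor that restrains mTORC1 and supports antioxidant defence, was at 216, 176, 166 and 238 in control mice and at 356, 234, 322 and 474 after Con A + PBS. It was the only one of the 9 called genes whose groups overlapped, through the same mouse 2. Its log2 fold change was 0.77 ± 0.20 (SE) with an adjusted p of 0.00612 (limma, Benjamini-Hochberg).

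The 3 GADD45 genes all rose, with different spreads. Gadd45a (chr6:67035096-67037406) was at 55, 77, 73 and 36 in control mice and at 292, 119, 112 and 596 after Con A + PBS. Gadd45b (chr10:80930091-80932204) was at 80, 86, 58 and 126 in control mice and at 425, 160, 200 and 917 after Con A + PBS. In both genes the groups did not overlap, and mice 1 and 4 were high whereas mice 2 and 3 lay close above the control range. The log2 fold changes were 1.91 ± 0.51 (SE) for Gadd45a and 1.98 ± 0.46 (SE) for Gadd45b, with adjusted p values of 0.00682 and 0.00291. Without Con A + PBS mouse 4 they were 1.43 and 1.49 and still called. Gadd45g (chr13:51846678-51848468) was at 224, 231, 169 and 553 in control mice and at 1759, 1115, 1986 and 2931 after Con A + PBS. All 4 Con A + PBS mice stood well above the control mice, including control mouse 4, which was far from the other 3. The log2 fold change of Gadd45g was 2.80 ± 0.37 (SE), with an adjusted p of 5.45e-05.

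**Figure D2:**
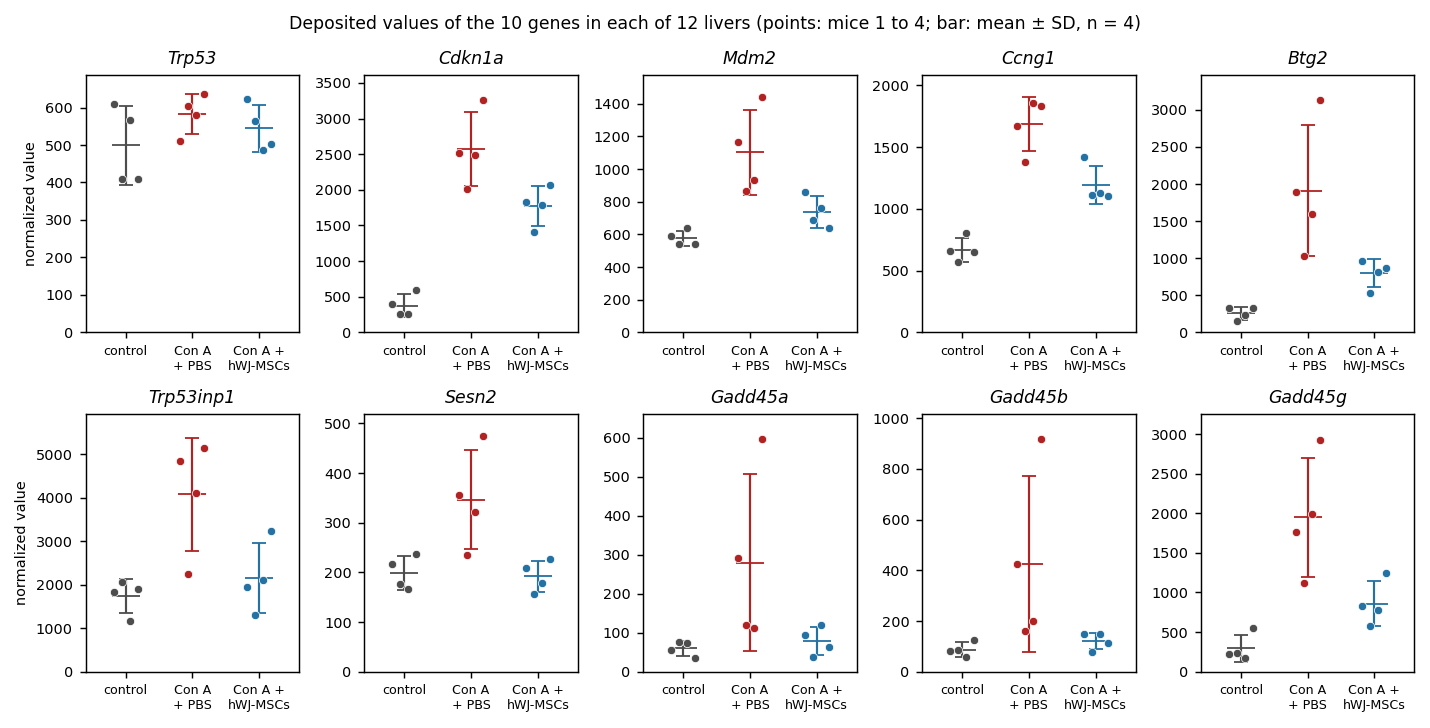
Normalised value (y axis, linear from 0, its own scale for each gene) of each of the 10 genes in the 3 groups of mice, with 1 point per mouse and the mean ± SD (n = 4) as bars. Trp53 overlaps between all groups, whereas Cdkn1a rises from 252 to 590 in control mice to 2009 to 3260 after Con A + PBS and lies at 1402 to 2072 with hWJ-MSCs.

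The high and the low values were not spread evenly over the Con A + PBS mice. Mouse 4 had the highest value of its group in 9 of the 10 genes, the exception being Ccng1, and mouse 2 had the lowest in 8. In the Con A + hWJ-MSCs group, mouse 2 was lowest in 7 of the 10 genes. For 3 of 4 lists of leukocyte markers, the summed values of these mice ran the other way. Con A + PBS mouse 4 had the lowest sum of its group for 5 T and NK cell markers, 598, for 7 neutrophil markers, 1202, and for 7 pan-leukocyte markers, 3465, and mouse 2 had the highest of each, 1200, 2110 and 4973. Of the 11 monocyte and macrophage markers, the 9 that reached 64 in at least 2 control mice summed to 1904, 2218, 1819 and 1948 in the 4 mice. Cd14, which did not reach it there, was at 5380, 4032, 4184 and 5242, and mice 1 and 4 were its higher mice, as for Gadd45a and Gadd45b. Con A + hWJ-MSCs mouse 2 had the lowest value of its group for the summed neutrophil markers, 869, and for Cd14, 1009, whereas the sum of the 9 markers was lowest in mouse 4, at 1078. Mouse 2 of that group was not the lowest for the pan-leukocyte markers, at 4157 in a range of 2862 to 4577. Nor was it for the T and NK cell markers, at 783 in a range of 667 to 984. The part of these cells in the differences between mice was not tested.

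**Figure D3:**
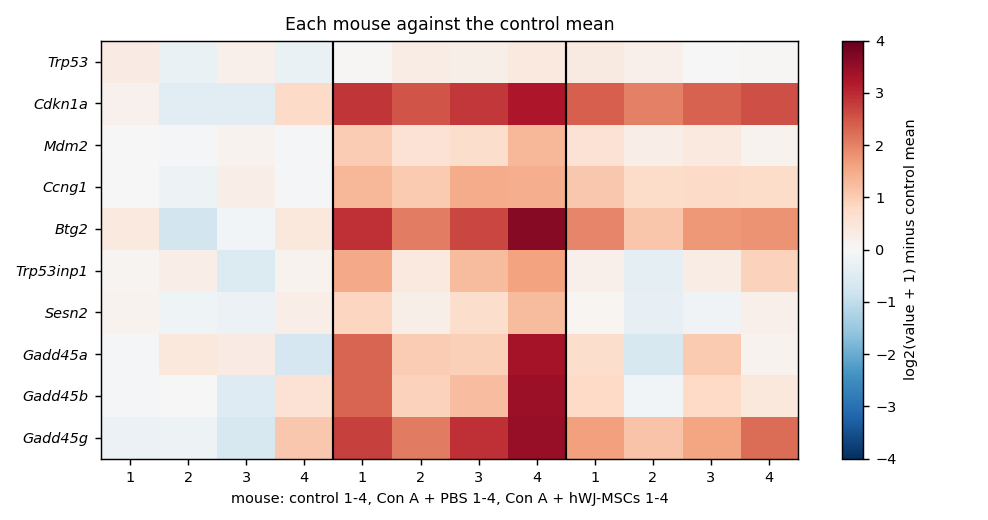
Heat map of log2(value + 1) minus the mean of the control mice, with genes as rows and the 12 mice as columns, in which red is above and blue below the control mean. Con A + PBS mouse 4 is the darkest red of its group in 9 of the 10 genes, and mouse 2 is the palest in 8.

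Several cell type markers moved with the same comparison. The 7 neutrophil markers in the table were all called up, and their sum rose from 73 to 157 in control mice to 1202 to 2110 after Con A + PBS. The 5 T and NK cell markers in the table were also all called up, from a sum of 55 to 115 to one of 598 to 1200, but none of these 12 genes reached 64 in 2 control mice. Their presence in the table therefore depended on the other groups. Of 16 T and NK cell markers looked for, 11 were not in the table, the CD3 chains among them, and of the 9 neutrophil markers Ly6g and Elane were not. Of 7 pan-leukocyte markers 4 rose, and their sum went from 2451 to 2944 in control mice to 3465 to 4973. Of 11 monocyte and macrophage markers in the table, 5 rose and 6 fell, the Kupffer cell genes Clec4f, Vsig4 and Timd4 among the latter, and the median log2 fold change of the list was -1.39. Of the 5 that rose, Ly6c2 and Cd14 did not reach 64 in 2 control mice. Among the other 9 markers 3 rose and 6 fell, with a median of -1.46, and their sum was 3404 to 5208 in control mice and 1819 to 2218 after Con A + PBS. Cd14 alone went from a mean of 55.5 to 4709.5. Among 10 endothelial markers 7 fell and 1 rose, and their sum was 1964 to 2734 against 4081 to 5687 in control mice. Of 12 hepatocyte markers 6 fell, with the sums given above, and of 9 stellate cell markers 3 fell, with overlapping sums of 5212 to 8180 and 6401 to 7440. The part of these cell types in the changes of the 10 genes was not tested.

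The second question was whether these genes differed when hWJ-MSCs were infused after Con A, and Con A + hWJ-MSCs mice were compared with Con A + PBS mice. Of the 10 genes, 3 fell and 0 rose, while 4.38% of all genes were called down and 4.2% up. The count of genes that rose was also 0 at an unadjusted p below 0.05, and 8 of the 10 genes were lower at that p. All 10 fitted differences were negative, with a median log2 fold change of -0.87 against 0.00 for all genes. In 4 genes, Mdm2, Btg2, Sesn2 and Gadd45b, every Con A + hWJ-MSCs mouse was below every Con A + PBS mouse, compared with 11.6% of all genes. Without the limit on fold change, 5 genes had an adjusted p below 0.05, compared with 6.65% of all genes that were lower. Both comparisons use the same Con A + PBS mice, so a mouse that is high in that group raises the first difference and lowers the second.

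Sesn2, Btg2 and Gadd45b were the genes called. With hWJ-MSCs, Sesn2 was at 208, 156, 178 and 226, within the control range but for the mouse at 156. The log2 fold change against Con A + PBS was -0.82 ± 0.20 (SE) with an adjusted p of 0.0286 (limma, Benjamini-Hochberg). Btg2 was at 966, 530, 820 and 871, between the control mice, at 150 to 334, and the Con A + PBS mice, at 1034 to 3130. All 4 mice lay in that gap, and the log2 fold change was -1.18 ± 0.33 (SE) with an adjusted p of 0.0394. Gadd45b was at 147, 78, 148 and 112, which overlapped the control mice, at 58 to 126, and lay just below the lowest Con A + PBS mouse, at 160. Its log2 fold change was -1.50 ± 0.46 (SE) with an adjusted p of 0.0489.

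Mdm2 and Ccng1 passed the adjusted p but not the limit on fold change. Mdm2 was at 862, 687, 762 and 640 with hWJ-MSCs, below the lowest Con A + PBS mouse, which was at 865, by 3 units in its highest mouse. For Mdm2 the log2 fold change was -0.56 ± 0.15 (SE), with an adjusted p of 0.0386 (limma, Benjamini-Hochberg). Ccng1 was at 1420, 1114, 1126 and 1108, and mouse 1, far from the other 3, overlapped the Con A + PBS mice. Its log2 fold change was -0.50 ± 0.14 (SE), with an adjusted p of 0.0375.

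For the other 5 genes the difference did not pass. Gadd45a had the lowest fitted log2 fold change of the 10, -1.60 ± 0.51 (SE), with values of 94, 37, 120 and 64 and an adjusted p of 0.0548. Gadd45g was at 826, 580, 784 and 1252, and its highest mouse was above the lowest Con A + PBS mouse, at 1115. Its log2 fold change was -1.15 ± 0.37 (SE) and its adjusted p also 0.0548. Trp53inp1 was at 1950, 1304, 2106 and 3232, with a log2 fold change of -0.93 ± 0.30 (SE) and an adjusted p of 0.0576. Mouse 4 of the hWJ-MSCs group was above the lowest Con A + PBS mouse in both genes. Cdkn1a was at 1836, 1402, 1790 and 2072, and its log2 fold change of -0.53 ± 0.25 (SE) had an adjusted p of 0.155. Trp53 was at 623, 563, 488 and 503, and its log2 fold change was -0.10 ± 0.15 (SE) with an adjusted p of 0.651.

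The sum of the monocyte and macrophage markers was lower without overlap, at 3028 to 4876 against 6229 to 7505 in Con A + PBS mice, but this followed Cd14, whose mean was 1972 against 4709.5 and which was the 1 gene of the 11 called. The sums of the 9 markers at 64 or more in 2 control mice overlapped, at 1078 to 2497 against 1819 to 2218. The median log2 fold change was 0.17 over all 11 markers and 0.34 over these 9. Of the 10 endothelial markers, Stab2 rose and Cdh5 and Lyve1 fell, and their sums overlapped, at 2202 to 3122 against 1964 to 2734. The neutrophil, pan-leukocyte, T and NK cell, hepatocyte and stellate cell lists had 0 genes called in limma. At an unadjusted p below 0.05, 2, 1, 0, 1 and 1 of their genes were lower and 0, 0, 0, 3 and 4 higher, and the sums of all 5 lists overlapped those of Con A + PBS mice. Whether these cells had a part in the differences of the 10 genes was not tested.

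With hWJ-MSCs the calls, but not the direction of the differences, changed when 1 mouse was left out. The count of genes called down was 0 without Con A + PBS mouse 1, 3 or 4 or without Con A + hWJ-MSCs mouse 2 or 3, 1 without control mouse 3, and 8 without Con A + PBS mouse 2, whereas the direction of all 10 differences held in each of these fits. Over all genes, the count called down moved from 495 to 2 without Con A + PBS mouse 1, to 149 without mouse 4, and to 10 and 3 without Con A + hWJ-MSCs mouse 2 and 3. Sesn2 was called in 7, Btg2 in 5 and Gadd45b in 1 of the 12 fits. Across these fits the log2 fold change of Sesn2 ran from -0.99 to -0.65, that of Btg2 from -1.44 to -0.91 and that of Gadd45b from -1.85 to -1.02, with adjusted p values in limma of up to 0.0897, 0.113 and 0.133.

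**Figure D4:**
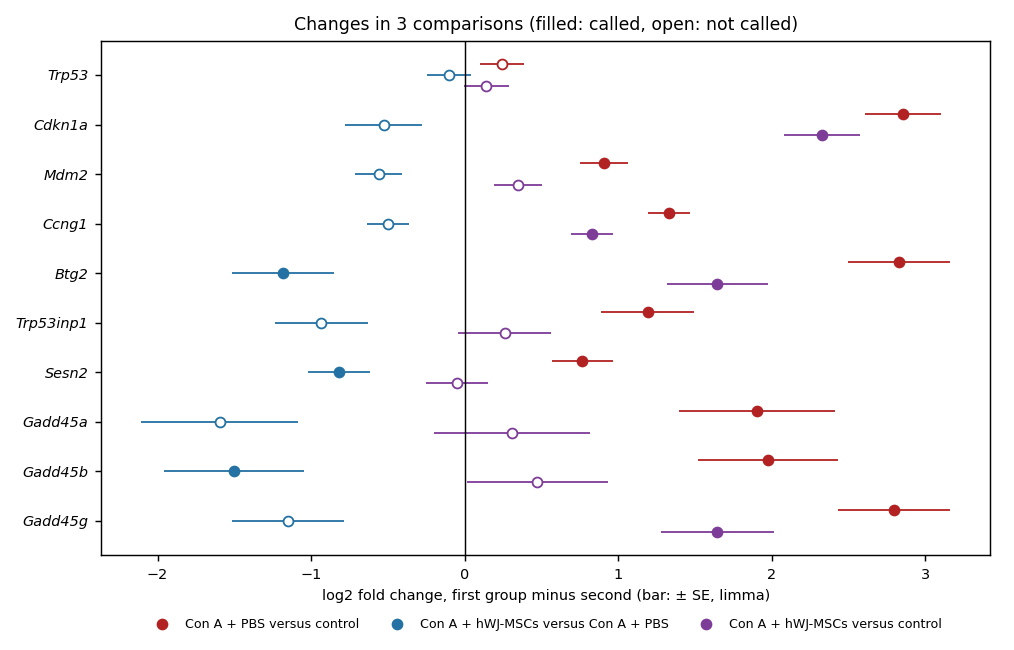
Log2 fold change (x axis, first group minus second, bars ± SE from limma) of the 10 genes in 3 comparisons, with filled points for called genes and open points for the rest. After Con A 9 points are filled on the right, from 0.77 for Sesn2 to 2.86 for Cdkn1a, and all 10 points of Con A + hWJ-MSCs against Con A + PBS lie left of 0, of which 3 are filled.

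The third comparison, of Con A + hWJ-MSCs with control mice, showed which genes stayed above the control level. Cdkn1a, Ccng1, Btg2 and Gadd45g were called up and 0 of the 10 down, also at an unadjusted p, while 13.6% of all genes were called up and 13.1% down. Cdkn1a remained 5.03-fold higher, with a log2 fold change of 2.33 ± 0.25 (SE) and an adjusted p of 2.58e-05 (limma, Benjamini-Hochberg). Btg2 and Gadd45g each had a log2 fold change of 1.65, with SE of 0.33 and 0.37 and adjusted p values of 0.00196 and 0.00369. Ccng1 was 1.78-fold higher, with a log2 fold change of 0.83 ± 0.14 (SE) and an adjusted p of 5.16e-04. In these 4 genes and in Mdm2, every Con A + hWJ-MSCs mouse was above every control mouse, compared with 20.6% of all genes. The lowest of these Mdm2 values, 640, stood just above the highest control value, 637, and the log2 fold change of Mdm2 was 0.35 ± 0.15 (SE) with an adjusted p of 0.0900. Each of the 4 calls held in 12 of 12 fits without 1 mouse.

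Cell type markers moved with this comparison too. All 7 neutrophil and all 5 T and NK cell markers in the table were called up, with sums of 869 to 1803 and 667 to 984 against 73 to 157 and 55 to 115 in control mice, and none of these 12 genes reached 64 in 2 control mice. Of the 7 pan-leukocyte markers 4 rose, with sums of 2862 to 4577 that overlapped those of control mice. Among the 9 monocyte and macrophage markers that reached 64 in 2 control mice, 3 rose and 5 fell, and 5 rose and 5 fell among all 11. Of 10 endothelial markers 6 fell and 0 rose in limma, with sums of 2202 to 3122 against 4081 to 5687 in control mice. At an unadjusted p below 0.05, 7 of them were lower and 0 higher. Of 12 hepatocyte markers 4 fell and 0 rose, also at that p, and of 9 stellate cell markers 3 fell and 1 rose. The part of these cell types in the 4 calls was not tested.

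The remaining 5 genes overlapped the control mice. Their log2 fold changes against control were 0.14 for Trp53, 0.26 for Trp53inp1, -0.05 for Sesn2, 0.31 for Gadd45a and 0.47 for Gadd45b, with SE of 0.15, 0.30, 0.20, 0.51 and 0.46. Adjusted p values ran from 0.431 for Gadd45b to 0.861 for Sesn2 in limma with Benjamini-Hochberg adjustment. The median log2 fold change of the 10 genes was 0.41, and that of all genes 0.04. With an SE near 0.5 for Gadd45a and Gadd45b, differences from control of that size were not detectable here.

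Set side by side, the order of the 3 groups by mean ran from control through Con A + hWJ-MSCs to Con A + PBS in 9 of the 10 genes. Sesn2 was the exception, with a mean of 199 ± 33.8 (SD, n = 4) in control and 192 ± 31.1 (SD, n = 4) in Con A + hWJ-MSCs mice. For Cdkn1a the means were 372 ± 159, 1775 ± 278 and 2571 ± 516 (SD, n = 4 each), and the difference between the upper neighbours of that order did not pass the test. For Ccng1 they were 671 ± 97.9, 1192 ± 152 and 1686 ± 218 (SD, n = 4 each), and for Gadd45g 294 ± 175, 860.5 ± 282 and 1948 ± 752 (SD, n = 4 each). For Gadd45a, with 60.2 ± 18.8, 78.8 ± 36.0 and 280 ± 227 (SD, n = 4 each), the difference between the lower neighbours did not pass.

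Whether pairs of these genes changed unequally was tested within mice, as the log2 value of the first gene minus that of the second, by two-sided exact permutation tests. With 4 mice against 4, the smallest p these can give is 0.0286. In all, 8 pairs were compared in 3 comparisons, 24 tests, and 0 had a Benjamini-Hochberg adjusted p below 0.05. Over 24 tests that smallest p does not let a single pair pass alone, so this outcome does not show that pairs changed equally. The lowest adjusted p was 0.0857. Cdkn1a rose above Trp53 by 2.61 log2 units after Con A + PBS, above Mdm2 by 1.95 and above Ccng1 by 1.53, without overlap between groups and each with an exact permutation p of 0.0286. Against hWJ-MSCs the Cdkn1a differences to Mdm2 and Ccng1 hardly moved from Con A + PBS, by 0.03 and -0.03, with an exact permutation p of 0.886 for both. Btg2 minus Cdkn1a was -0.49 ± 0.34 in control mice, -0.52 ± 0.38 after Con A + PBS and -1.18 ± 0.20 with hWJ-MSCs (SD, n = 4 each). The last 2 groups differed by -0.66, with an exact permutation p of 0.0571 and overlap.

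Within the GADD45 family, Gadd45a minus Gadd45b was -0.54 ± 0.90 in control mice, -0.60 ± 0.17 after Con A + PBS and -0.70 ± 0.32 with hWJ-MSCs (SD, n = 4 each). The exact permutation p values were 0.914 for Con A + PBS against control and 0.657 for Con A + hWJ-MSCs against Con A + PBS. Gadd45b minus Gadd45g was -1.64 ± 0.33 in control and -2.81 ± 0.49 in Con A + hWJ-MSCs mice (SD, n = 4 each), without overlap. That difference of -1.17 had an exact permutation p of 0.0286 and an adjusted p of 0.0857. Between Sesn2 and Trp53inp1 the differences were -0.43 after Con A + PBS and 0.11 with hWJ-MSCs against Con A + PBS, with exact permutation p values of 0.0857 and 0.571.

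Other genes of the pathway were taken from lists and described by counts, to be read against the 19.5% of all genes called up and 19.2% called down after Con A, and the 4.2% called up and 4.38% called down with hWJ-MSCs against Con A + PBS. The last shares changed with single mice, as given above, and the counts of the lists in that comparison were not refitted without each mouse. Of 22 regulators of p53 that act on the protein, such as kinases and ubiquitin ligases, 14 were in the table, and 0 of these rose or fell after Con A in limma, where 1 was higher and 1 lower at an unadjusted p below 0.05. Their median log2 fold change was 0.07. With hWJ-MSCs against Con A + PBS, 2 of them fell, Hipk2, a kinase of p53, and Ppp1r13l, which encodes the inhibitor iASPP, and 0 rose. There, 2 were higher and 4 lower at an unadjusted p below 0.05 in limma. Their median log2 fold change in that comparison was -0.12.

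Of 19 other p53 targets that act in cell death, 16 were in the table, of which 8 rose and 3 fell after Con A, with a median log2 fold change of 0.61. The 3 with the lowest adjusted p were Phlda3, an inhibitor of Akt, Tnfrsf10b, a death receptor for TRAIL, and Apaf1, the scaffold of the apoptosome. Phlda3 rose from 34.0 ± 13.4 to 247 ± 38.6 (SD, n = 4 each), Tnfrsf10b from 13.5 ± 1.91 to 113 ± 24.3 and Apaf1 from 52.8 ± 13.6 to 224 ± 72.2. These 3 are the genes among the 16 that did not reach 64 in at least 2 control mice, so their presence in the table depended on the groups in which they were high. Among the other 13, 5 rose and 3 fell after Con A, with a median log2 fold change of 0.30. With hWJ-MSCs against Con A + PBS, 4 of the 16 fell and 2 rose, with a median log2 fold change of -0.08. Among the 13 genes that reached 64 in at least 2 control mice, 1 fell, Zmat3, and 2 rose, Perp and Casp6. The other 3 that fell were Phlda3, Tnfrsf10b and Apaf1, with log2 fold changes of -0.89 ± 0.24 (SE), -1.87 ± 0.28 (SE) and -1.05 ± 0.23 (SE) and adjusted p values of 0.0383, 0.0149 and 0.0252 (limma, Benjamini-Hochberg). After Con A the list did not move one way either. Bax, which permeabilises the mitochondrial outer membrane, rose by a log2 fold change of 1.58 ± 0.20 (SE) after Con A, whereas Bbc3, which encodes the BH3-only protein PUMA, changed by -1.25 ± 0.15 (SE), and both of these were named after their values were seen.

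Of 29 other p53 targets in arrest, repair and metabolism, 25 were in the table, of which 7 rose and 5 fell after Con A, with a median log2 fold change of 0.39. One of the 7, Dyrk3, did not reach 64 in at least 2 control mice, and among the other 24 genes 6 rose and 5 fell, with a median of 0.33. Pml, the scaffold of nuclear bodies, rose with a log2 fold change of 1.11 ± 0.12 (SE). Gpx1, a glutathione peroxidase abundant in hepatocytes, fell from 22430 ± 5438 to 7965 ± 723 (SD, n = 4 each), and Sesn1, sestrin 1, from 258.5 ± 28.5 to 116 ± 8.96. Sesn1 thus fell in the mice in which its paralogue Sesn2 rose. With hWJ-MSCs 1 gene of this list rose and 1 fell against Con A + PBS, where 3 were higher and 10 lower at an unadjusted p below 0.05 in limma.

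Of 15 paralogues and further inhibitors of cyclin-dependent kinases, 11 were in the table, and 2 rose and 3 fell after Con A, again near the shares of all genes. Btg3, a paralogue of Btg2, rose from 57.2 ± 19.96 to 709 ± 314 (SD, n = 4 each) and fell to 274 ± 92.6 with hWJ-MSCs, an adjusted p of 0.0375 against Con A + PBS. Tob1, of the same family, fell from 1359 ± 169 to 737 ± 84.2 (SD, n = 4 each) after Con A and was at 742 ± 77.7 with hWJ-MSCs. The family of Btg2 therefore held genes called in both directions.

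Among 13 of 19 partners of GADD45 and genes of the p38 and JNK cascade, 0 rose and 1 fell after Con A in limma, where 4 were higher and 4 lower at an unadjusted p below 0.05. The one that fell was Map2k6, a kinase that activates p38, from 93.0 ± 27.8 to 33.8 ± 13.4 (SD, n = 4 each). With hWJ-MSCs it was at 58.0 ± 8.64 (SD, n = 4), and the difference from Con A + PBS did not pass, with an adjusted p of 0.0795 (limma, Benjamini-Hochberg). Of 18 cyclins, their kinases, pocket proteins and E2F factors, 13 were in the table, and 6 rose and 2 fell after Con A. Among the cyclins, Ccnd2, Ccnd3, Ccne2 and Ccna2 rose and Ccnd1 fell, and the others called were E2f4 and the pocket protein Rbl1, which rose, and the pocket protein Rbl2, which fell. Ccna2 and Rbl1 did not reach 64 in at least 2 control mice. Among the other 11 genes of this list, 4 rose and 2 fell after Con A, with a median log2 fold change of 0.11. Ccnd2, cyclin D2, rose from 101 ± 20.9 to 220.5 ± 18.7 (SD, n = 4 each) and was back at 94.0 ± 18.4 with hWJ-MSCs. Ccnd3 and E2f4 rose by 0.74 ± 0.09 (SE) and 0.73 ± 0.09 (SE) on the log2 scale. Kinase Cdk1 and cyclins Ccnb1 and Ccnb2, which GADD45 proteins are known to bind or restrain, were not in the table.

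Of 24 transcription factors known to induce these genes without p53, 23 were in the table, and 15 rose and 2 fell after Con A, with a median log2 fold change of 1.39. Nfkb2 and Relb, of the non-canonical NF-κB pathway, were among those that rose. Nfkb2 rose from 200.0 ± 22.6 to 596 ± 104 after Con A and was at 337 ± 74.0 with hWJ-MSCs, and Relb rose from 57.2 ± 9.91 to 190.0 ± 37.3 and was at 95.5 ± 27.3 (SD, n = 4 each). Both fell against Con A + PBS, to 0.564 and 0.499 of its fitted level, with adjusted p values of 0.0199 and 0.0224 in limma. In the comparison of hWJ-MSCs with Con A + PBS, 9 of the 23 factors fell and 0 rose, beside 4.38% and 4.2% of all genes. At an unadjusted p below 0.05 in limma, 20 were lower and 1 was higher. Of the 23, 18 reached 64 in at least 2 control mice, and Relb, Atf3, Fos, Myc and Klf4 did not. Among the 18, 10 rose and 2 fell after Con A, with a median log2 fold change of 0.76, and 5 fell with hWJ-MSCs against Con A + PBS, with a median of -0.54.

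**Figure D5:**
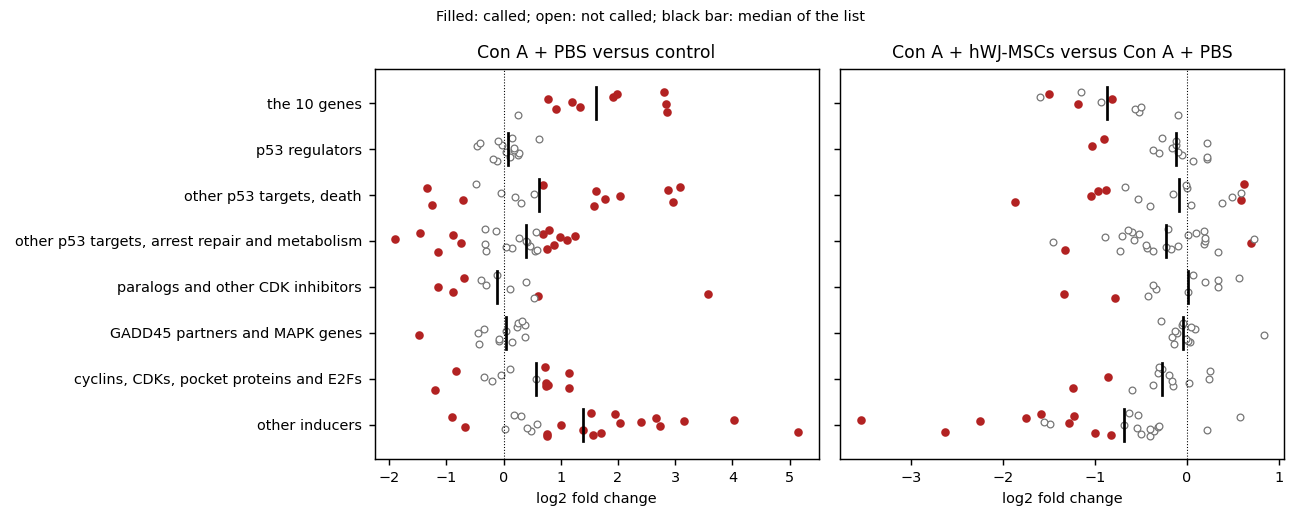
Log2 fold change (x axis) of each gene of the 7 pathway lists and of the 10 genes, after Con A (left) and with hWJ-MSCs against Con A + PBS (right), with filled points for called genes, open points for the rest and a black bar at the median of each list. On the left the bar of the 10 genes is at 1.62 and that of the p53 regulators at 0.07, and on the right the bars of the 10 genes and of the other inducers are at -0.87 and -0.69.

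The genes most like each of the 10 were found by Pearson's r of log2(value + 1) over the 12 mice, given without a test because the mice share the 3 groups and 1 normalisation. Of the genes named here, Ngp, Glipr2, Atf3, Hist1h1d and Map3k6 did not reach 64 in at least 2 control mice, with control means of 0.75, 33.2, 26.0, 0.25 and 26.8, so they were in the table through the other groups. Closest to Cdkn1a were Ngp, a granule protein of neutrophils, with r = 0.988, and Glipr2, also with r = 0.988. Mdm2 was closest to Slc2a1, the glucose transporter GLUT1, with r = 0.979 and to Atf3, a stress-induced transcription factor, with r = 0.978. Sesn2 was closest to Mafk, a partner of NRF2, with r = 0.983 and to Igfbp1, a secreted hepatocyte protein, with r = 0.965. Btg2 was closest to Map3k6 with r = 0.987, Ccng1 to Hist1h1d with r = 0.980, Trp53inp1 to Zfp91 with r = 0.940, and Gadd45a, Gadd45b and Gadd45g to Apex1, Seh1l and Qsox2 with r = 0.952, 0.970 and 0.972. Among the 10 genes themselves, Btg2 and Gadd45g had the highest r, 0.952, followed by Cdkn1a and Gadd45g with 0.950. Trp53 had r of 0.117 to 0.585 with the other 9, and its closest genes in the table were 2410002F23Rik with r = 0.923 and Vrk1, a kinase of p53, with r = 0.898.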

How the data were processed

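Poly-A RNA of whole liver from 12 mice was sequenced as 150 bp pairs. Per the labels, the authors aligned reads with Bowtie2 2.2.1 and quantified them with RSEM 1.2.18 on mm10. The authors deposited 1 table of whole-number values already normalised between mice, treated as a score; the normalisation is not given in the sources used here. That scale was read from the values: 84.5% of ranks held the same value, within 1%, in all mice, and 10 genes shared the largest value in each mouse. It can pull group levels together. A count test was planned only for raw counts and was not used.

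Values were fitted as log2(value + 1), so fold changes of low genes are understated, with limma 3.58.1 (lmFit, eBayes with trend) in R 4.3.3. One model held all 12 mice without covariates, and p-values were Benjamini-Hochberg adjusted over 11289 genes. Called means an adjusted p below 0.05 and a fold above 1.5, the fold being that of the authors. The script was tested on simulated data. Pairs of genes were compared by exact permutation tests (scipy 1.17.1, Python 3.11.15). Of the transcripts, 11168 were found in GENCODE M21, and 11165 overlapped there. Coordinates are those of the table.

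The members, lists, motifs and tests were chosen with earlier results of these data known. Named genes are the members, up to 3 genes per pathway list with the lowest adjusted p after Con A among those called, and the 2 genes most like each member, of which some are printed. Bax, Bbc3, Hipk2, Ppp1r13l, Zmat3, Perp, Casp6, the other cyclins and pocket proteins, the genes below 64 in control mice and single genes of the cell type marker lists fall outside that rule and were chosen after their values were seen. A gene that this rule names is not reported here. Groups follow the labels. Alternatives were another pseudocount, a filter on means, other scaling, thresholds and models, a replicate block and leaving out each mouse.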

Additional observations from a re-analysis of the deposited data

Results flagged for a closer look

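In the 30 groups of 4 mice formed by 10 genes and 3 groups, the distance of the highest or lowest mouse from its neighbour was compared with Dixon's 95% critical value, and 2 groups passed it, where chance passes about 1 in 20. Ccng1 in Con A + hWJ-MSCs mouse 1 was 1420, while the other 3 mice were at 1108 to 1126, so that the gap took 0.942 of the range. Gadd45g in control mouse 4 was 553, while the other 3 control mice were at 169 to 231, with a gap of 0.839 of the range. Without control mouse 4, the rise of Gadd45g after Con A had a log2 fold change of 3.15 and was still called.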

How the results depend on the processing

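The 9 rises after Con A + PBS and the 4 rises of Con A + hWJ-MSCs against control kept their direction and their calls in all fits without 1 mouse. Among the other settings a fold limit of 2 ended those of Mdm2 and Sesn2 after Con A and of Ccng1 with hWJ-MSCs against control. The 3 genes that fell with hWJ-MSCs against Con A + PBS became 1 when only these 8 mice were fitted, 6 at an unadjusted p and 5 without the fold limit. Without 1 mouse they ranged from 0 to 8. The cause was not tested. In that comparison a fold limit of 2 ended the call of Sesn2, the fit of the 8 mice those of Btg2 and Gadd45b, and eBayes without a trend that of Gadd45b. The Sesn2 difference between Con A + hWJ-MSCs and control, -0.05 and not called, became 0.040 without control mouse 4 and 0.044 without Con A + hWJ-MSCs mouse 2, in a range from -0.13 without 1 mouse. Of 360 fitted values without 1 mouse, 326 kept direction and call, 23 lost and 9 gained the call and 2 changed sign, and of 300 under other settings 286 kept both. No pairwise test passed under another pseudocount, centring or quantile normalisation, where the same smallest p applied. The depth is unknown, so its limit cannot be stated.

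The replicate block was fitted although same-numbered mice are different animals. The correlation of same-numbered mice ran from -0.118 to 0.375 and was not above 0.1 in every pair, so the numbers were not taken to pair the mice. With the block, 5 genes fell with hWJ-MSCs against Con A + PBS, and the counts of the other comparisons of the 10 genes stayed at 9, 4 and 0.

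Over all genes, called counts after Con A were 3328 up without a fold limit, and 1107 up and 1284 down above a fold of 2. With hWJ-MSCs against Con A + PBS they were 910 up and 787 down at an unadjusted p, 734 and 751 without a fold limit, 163 and 190 above a fold of 2, and 4 to 846 up and 2 to 729 down without 1 mouse. For Con A + hWJ-MSCs against control they were 2522 up without a fold limit, and 733 up and 806 down above a fold of 2.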
